A study of Bos taurus with 46 samples.

Results

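Heifers carrying 2 fetuses were compared with heifers carrying 1 on D105 of gestation, by RNA sequencing of maternal circulating leukocytes. Every heifer here was pregnant after in vitro production (IVP), in which oocytes are matured, fertilized and cultured outside the body before transfer to a recipient. The members are the 15 D105 libraries of the IVP heifers, 1 per heifer, out of 46 libraries of 23 heifers in the series. Heifers 688, 628, 557 and 604 carried 2 fetuses and the other 11 carried 1, as the study lists them at collection on D105. The recipients were Angus crossbred heifers in the second year of life, each given 2 embryos from *Bos taurus taurus* oocytes and semen of 1 Brahman bull, so the heifers with 1 fetus were also recipients of 2 embryos. Of the 4 heifers with 2 fetuses, 688 and 628 belonged to the IVP-Normal group, and 557 and 604 to the IVP-LOS group, in which at least 1 fetus was overgrown (large offspring syndrome, LOS) relative to fetuses conceived by artificial insemination (AI). The heifers with 1 fetus were 4 IVP-Normal (519, 560, 633 and 669) and 7 IVP-LOS (512, 602, 616, 637, 656, 663 and 664). The D105 libraries of IVP-Normal heifers all carry the library label New and those of IVP-LOS heifers the label BACKUP, so treatment group and library set cannot be told apart on D105. No heifer of the AI group carried 2 fetuses, and the levels of the 8 AI heifers are given as a range. These heifers also entered the scaling of the levels and an alternative fit, but not the main comparison.

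Leukocytes circulating in a pregnant cow meet hormones, interferons and cell-free material from the conceptus, and their transcripts are read as an indirect view of the pregnancy. With 2 fetuses the uterus holds more placental tissue, and in cattle the placental vessels of twins often join. The white cells themselves are a mixture of lymphocytes, monocytes and granulocytes, and a buffy coat also carries platelets and remnants of red cell precursors. In such a bulk sample, fewer cells of a type and less RNA per cell cannot be told apart.

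The 15 libraries held between 18692653 reads on genes (heifer 604) and 24473385 reads (heifer 663). The share of reads on no gene was 38.0% in 604 and 36.1% in 664, against 23.9% to 30.3% in the other 13, and these are the heifers the study describes as carrying the largest IVP-LOS fetuses. That share was 30.1% ± 5.93 (SD, n = 4) with 2 fetuses and 27.9% ± 3.08 (n = 11) with 1 (exact two-sided permutation test, p = 0.374, and p = 0.912 without 604). With 4 of 15 heifers there are 1365 choices, which sets a lower limit on p in such a test. Leukocyte identity was present in every group: the 20 T cell genes summed to between 3493 and 5380 CPM (counts scaled to library size by trimmed means of M values) with 2 fetuses and to between 2598 and 5615 CPM with 1. Of 35 trophoblast and placental genes in the table, 26 had no read in any of the 15 libraries, and the only tested one, *PAG1*, shares its symbol with a lymphocyte adaptor.

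No gene was called between 2 fetuses and 1 over the 15 heifers, at an FDR of at most 0.05 in edgeR's quasi-likelihood test (0 of 15956 genes, 0%). At an unadjusted p under 0.05 there were 1115 genes (6.99%), 649 higher and 466 lower with 2 fetuses, and the smallest FDR was 0.188. This split depended on the scaling, since median-of-ratios factors gave 567 higher and 583 lower. Other tests on the same 15956 genes did call genes: edgeR's likelihood ratio test called 16 (0.1%), of which 15 were higher, and DESeq2 called 10 (0.0627%), of which 9 were higher. All 10 were among the 16, and all 16 were among the 20 genes with the smallest quasi-likelihood p. These 20 genes are given below as values, because none passed the threshold of the test used throughout. Of the 20, 18 were higher with 2 fetuses and 2 were lower.

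Without heifer 604 the comparison of 3 heifers with 11 again called 0 of 16161 genes (0%) in edgeR's quasi-likelihood test, and the genes at an unadjusted p under 0.05 numbered 555 (3.43%), 291 higher and 264 lower. Heifer 604 was the highest of the 15 in 469 of the 649 genes that were higher at this threshold, which is 72.3%, while it was the highest in 11.4% of all genes tested. It was the lowest of the 15 in 25.3% of the 466 lower genes. Both sets of genes were chosen with 604 among the 4, which raises its share in them, so the shares describe these genes and test nothing. The number at an unadjusted p under 0.05 ranged from 555 without 604 to 1756 without 688, and it was 718 without 628 and 1702 without 664. Without 664 or without 604 and 664 together, 1 gene was called, *CACNA1B*, described below (without both, 1 of 16106 genes, 0.00621%, and 750 genes or 4.66% at an unadjusted p under 0.05). The groups overlapped in *CACNA1B* only through 604 and 664, so its call without them is no separate evidence.

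**Figure D1:**
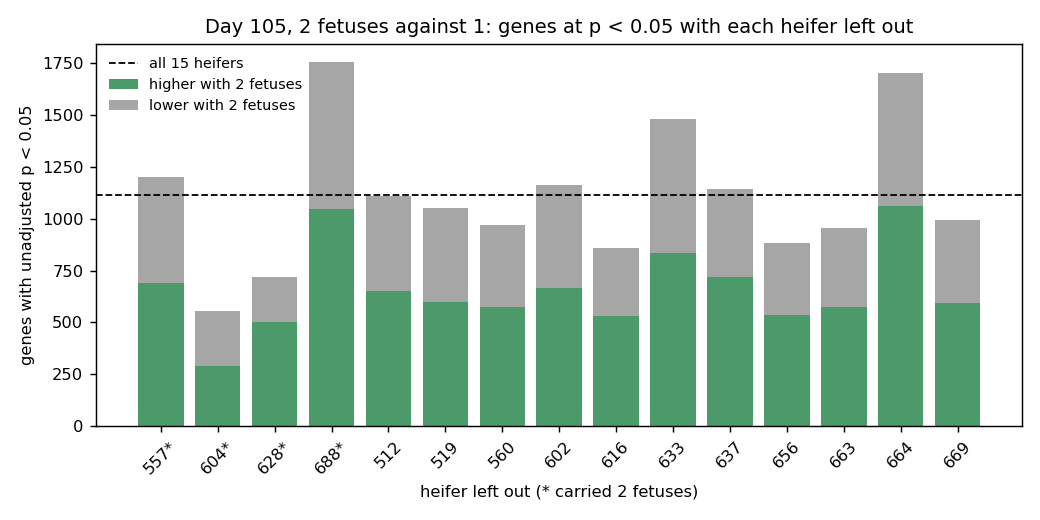
Number of genes with an unadjusted p under 0.05 (edgeR quasi-likelihood test, 2 fetuses against 1, D105) when the heifer on the horizontal axis is left out; green is higher and grey lower with 2 fetuses, asterisks mark the 4 heifers with 2 fetuses and the dashed line is the 1115 genes with all 15 heifers. The shortest bar, 555 genes, is that without 604, and the bars without 688 and 664 are the tallest.

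In 8 genes all 4 heifers with 2 fetuses lay above all 11 with 1 (0.0501% of genes tested), and in 19 genes all 4 lay below (0.119%). None of them was called, and the genes that follow are descriptions.

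*GABARAPL2*, a member of the ATG8 family of ubiquitin-like proteins that act on autophagosome membranes, was at 137, 146, 137 and 176 CPM in 688, 628, 557 and 604. With 1 fetus its lowest, median and highest levels were 86.4, 99.9 and 120.5 CPM, and the AI heifers spanned 95.7 to 123.6 CPM. The groups did not overlap, and heifer 604 was only moderately above the others. The log2 fold change was 0.57 (SE 0.10, edgeR FDR = 0.188), and 0.48 without 604. It was 0.51 within IVP-Normal and 0.61 within IVP-LOS.

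*ARHGAP1*, a GTPase-activating protein for small GTPases that shape the actin cytoskeleton, was at 368, 473, 498 and 367 CPM with 2 fetuses. With 1 fetus it was at 261, 324 and 367 CPM (lowest, median, highest). The lowest heifer with 2 fetuses and the highest with 1 were less than 1 CPM apart, and 604 was the lowest of the 4. Its log2 fold change was 0.46 (SE 0.11, edgeR FDR = 0.595) and was 0.53 without 604.

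*NRIP3*, which encodes a nuclear receptor interacting protein, was at 4.59, 4.47, 6.63 and 29.8 CPM with 2 fetuses, against 0.834, 1.44 and 3.67 CPM (lowest, median, highest) with 1. Heifer 604 was more than 4 times as high as 557, the next heifer, but the other 3 were also above every heifer with 1 fetus and above the AI range of 0.350 to 3.13 CPM. The log2 fold change was 2.59 (SE 0.45, edgeR FDR = 0.188) and 1.48 without 604.

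*SH3GL3*, an endophilin that bends membranes during endocytosis, was at 2.75, 4.15, 1.98 and 7.48 CPM with 2 fetuses and at 0.158, 0.7104 and 1.87 CPM with 1. The closest values of the groups were those of 557 and a heifer with 1 fetus. The log2 fold change was 2.40 (SE 0.44, edgeR FDR = 0.234), and 1.95 without 604.

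*IL4I1*, a secreted L-amino-acid oxidase by which antigen-presenting cells restrain T cells, was at 3.21, 3.54, 4.82 and 9.81 CPM with 2 fetuses and at 1.38, 2.17 and 3.05 CPM with 1. All 4 were above the heifers with 1 fetus, and 688 lay within the AI range, which reached 3.27 CPM. The log2 fold change was 1.37 (SE 0.27, edgeR FDR = 0.269) and 0.91 without 604.

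*KLF12*, a zinc finger transcriptional repressor, was at 5.84, 3.91, 6.16 and 5.48 CPM with 2 fetuses and at 6.71, 10.3 and 15.5 CPM with 1. It was 1 of the 2 genes of the 20 that were lower with 2 fetuses. The other was the pseudogene *LOC782527*, for which the heifers with 2 fetuses had only 9, 2, 6 and 4 reads and those with 1 had 14 to 27. The log2 fold change of *KLF12* was -0.90 (SE 0.22, edgeR FDR = 0.595) and -0.91 without 604, and 604 was neither the highest nor the lowest of the 4.

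**Figure D2:**
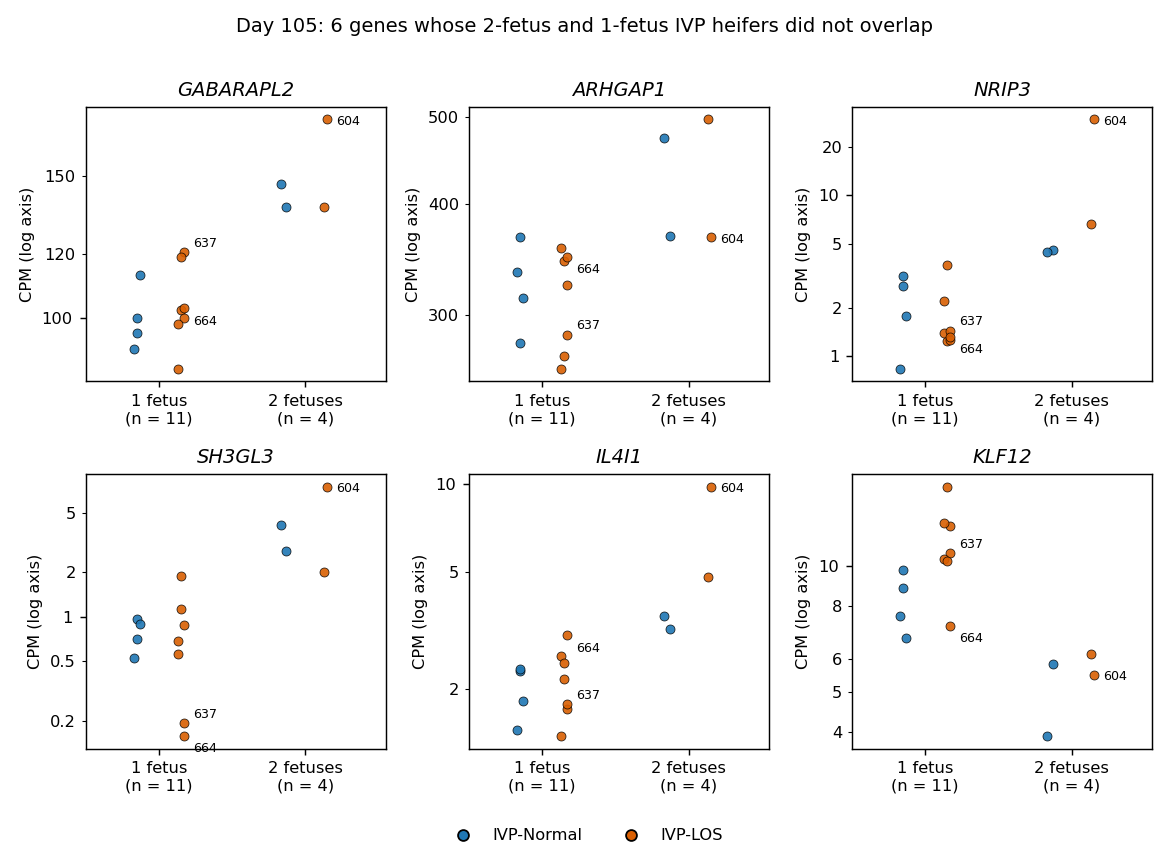
Level of 6 genes in each IVP heifer on D105, in CPM on a log axis, by number of fetuses and coloured by treatment group; heifers 604, 637 and 664 are labelled. In each panel the 4 heifers with 2 fetuses lie on one side of the 11 with 1, and in *ARHGAP1* the gap is under 1 CPM.

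Of the 19 genes below all heifers with 1 fetus, 5 more are given here, chosen after their values were seen. *ATM*, the kinase that responds to DNA double-strand breaks, was at 32.8, 28.5, 33.7 and 33.6 CPM with 2 fetuses and at 38.2 to 71.9 CPM with 1 (log2 fold change -0.56, SE 0.14, edgeR FDR = 0.595). *ASH1L*, a histone H3 lysine methyltransferase, was at 158, 146, 155 and 155 CPM against 160 to 216 CPM. *SUV39H2*, a methyltransferase of heterochromatin, was at 7.42, 7.03, 7.92 and 7.26 CPM against 8.67 to 15.5 CPM. In *ATM* heifer 628 was lower than the other 3, and in *ASH1L* the highest heifer with 2 fetuses was within 3 CPM of the lowest with 1. On D55 the same heifers gave log2 fold changes of -0.16, -0.01 and -0.20 for *ATM*, *ASH1L* and *SUV39H2*, none at an unadjusted p under 0.05. *NBAS* and *DZIP1*, which act in Golgi-to-ER transport and at the primary cilium, were also below and had D55 values of -0.23 and -0.44, both at an unadjusted p under 0.05.

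Heifer 604 stood apart from the other 3 in much of the rest of the 20 genes and was the highest of the 15 in 16 of the 20. *TUBA4A*, an alpha-tubulin abundant in platelets, had 221, 222 and 224 CPM in 688, 628 and 557 but 981 CPM in 604, against 86.3 to 241 CPM with 1 fetus. *DSTN*, the actin-severing protein destrin, was at 22.6, 18.2 and 22.7 CPM in the 3 and at 108.4 CPM in 604, against 6.13 to 24.6 CPM. *ACTA2*, the smooth muscle actin, was at 2.29, 2.89 and 3.23 CPM in the 3 and at 30.9 CPM in 604, against 1.49 to 3.19 CPM. In *TUBA4A* and *DSTN* the other 3 heifers lay within the range with 1 fetus, and in *ACTA2* only 557 was above it, by less than 0.1 CPM. Without 604 the log2 fold change of *ACTA2* went from 2.04 to 0.25 and that of *CPXM2*, a carboxypeptidase-like protein, from 2.18 to 0.93, neither at an unadjusted p under 0.05. The other 18 of the 20 had an unadjusted p under 0.05 without 604 (3.43% of all genes did), but the 20 were chosen on libraries of which 14 are used again here, so this count is no separate evidence.

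Further genes of the 20 were *S100A1* (a calcium sensor), *DYRK3* (a kinase of stress granules and erythroid cells), *TMCC2*, *CLTB* (a clathrin light chain), *GJA10* (a connexin), *MARCH2* (a membrane ubiquitin ligase), *TMEM232* and the uncharacterized *LOC112449065* and *LOC112447453*. Of these, *TMEM232* did not turn on 604: it was at 6.55, 12.2, 5.34 and 8.75 CPM with 2 fetuses and at 2.25 to 5.53 CPM with 1, with log2 fold changes of 1.23 (SE 0.24) with all 15 heifers and 1.21 without 604. *S100A1* was at 19.4, 14.3, 10.5 and 70.6 CPM against 2.29 to 14.2 CPM, with log2 fold changes of 2.18 and 1.22. The remaining 7 had log2 fold changes of between 1.04 and 3.45 with all heifers and between 0.50 and 2.59 without 604.

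The same heifers were sampled on D55, so both days share the animals and the second day is no separate set of pregnancies. On D55, 0 of 15905 genes were called (0%) by edgeR's quasi-likelihood test and 0 by DESeq2, and 406 (2.55%) had an unadjusted p under 0.05. Of the 20 D105 genes, 14 had a D55 p under 0.05 in the same direction. *GABARAPL2* had a log2 fold change of 0.39 on D55, *NRIP3* 1.31, *ARHGAP1* 0.38 and *IL4I1* 0.76. *KLF12* stood against these, with -0.90 on D105 and -0.09 on D55. Tested directly, the change from D55 to D105 differed between 2 fetuses and 1 in 0 of 16515 genes (0%) in edgeR and 0 in DESeq2, with 232 genes at an unadjusted p under 0.05. With heifer as a replicate block, which pairs the libraries of an animal, 0 genes were again called and 565 had an unadjusted p under 0.05, or 299 without 604.

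Platelet transcripts were the cell type list with the most members higher in heifers with 2 fetuses at an unadjusted p under 0.05, and 604 had by far the highest levels. Of 13 tested platelet genes, 0 were called, 10 had a higher level at an unadjusted p under 0.05 (6.99% of all genes did in either direction) and the median log2 fold change was 1.42, beside 0.00 over all genes. The 14 platelet genes in the table summed to 1941, 2032, 1297 and 6791 CPM in 688, 628, 557 and 604, against 586 to 2113 CPM (median 1304) with 1 fetus. Over the 15 heifers only 604 was outside the range with 1 fetus, but within IVP-Normal 688 and 628 were above all 4 heifers with 1 fetus (586 to 1464 CPM). *TUBB1*, the platelet beta-tubulin, was at 542, 682, 636 and 3153 CPM against 162 to 854 CPM (log2 fold change 1.69, SE 0.47, edgeR FDR = 0.595). *PF4*, a chemokine of platelet granules, was at 377, 311, 206 and 2159 CPM against 57.6 to 511 CPM. *GP9*, a subunit of the von Willebrand factor receptor, had a log2 fold change of 1.87 (SE 0.55, edgeR FDR = 0.595), and *ITGB3*, the fibrinogen receptor subunit, of 1.42 (SE 0.46, edgeR FDR = 0.601). Without 604 the median over the other heifers was 0.57 and 0 of the 13 had an unadjusted p under 0.05 (3.43% of all genes). Within IVP-Normal, which does not hold 604, the median was 0.98 (0.68 to 1.24 with single heifers left out) and 6 of the 13 were higher at this threshold, where 9.04% of all genes were at it in either direction. Within IVP-LOS the median was 1.89 with 604 and -0.20 without it, so that heifer set its sign. On D55 heifer 604 summed to 2807 CPM, within the 801 to 3454 CPM of the heifers with 1 fetus.

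Summed red cell genes were also highest in 604, mostly through 1 gene. The 18 erythroid genes in the table summed to 182, 220, 139 and 640 CPM with 2 fetuses and to 98.9 to 223 CPM with 1. Within IVP-Normal 688 and 628 were above all 4 heifers with 1 fetus (98.9 to 150 CPM). Of the 640 CPM in 604, 544 CPM came from *HBB*. Among 10 tested genes, 5 had a positive and 5 a negative log2 fold change, with a list median of 0.04. At an unadjusted p under 0.05, 3 of the 10 were higher (6.99% of all genes were at this threshold). Without 604 only *EPB42* was, and the median was 0.20. *HBB*, the adult beta-globin, was at 89.9, 112.2, 53.9 and 544 CPM against 9.13 to 130 CPM (log2 fold change 1.73, SE 0.62, edgeR FDR = 0.631). *EPB42*, a membrane skeleton protein of erythrocytes, was highest in 628 instead, with 1.54, 5.36, 0.947 and 3.82 CPM against 0.0878 to 2.08 CPM (log2 fold change 1.68, SE 0.61, edgeR FDR = 0.631). *ALAS2*, which starts haem synthesis in red cell precursors, was likewise highest in 628 and 604, at 31.1 and 29.3 CPM. The part of platelets or red cell remnants in the differences of *TUBA4A*, *DSTN* or *ACTA2* was not tested.

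**Figure D3:**
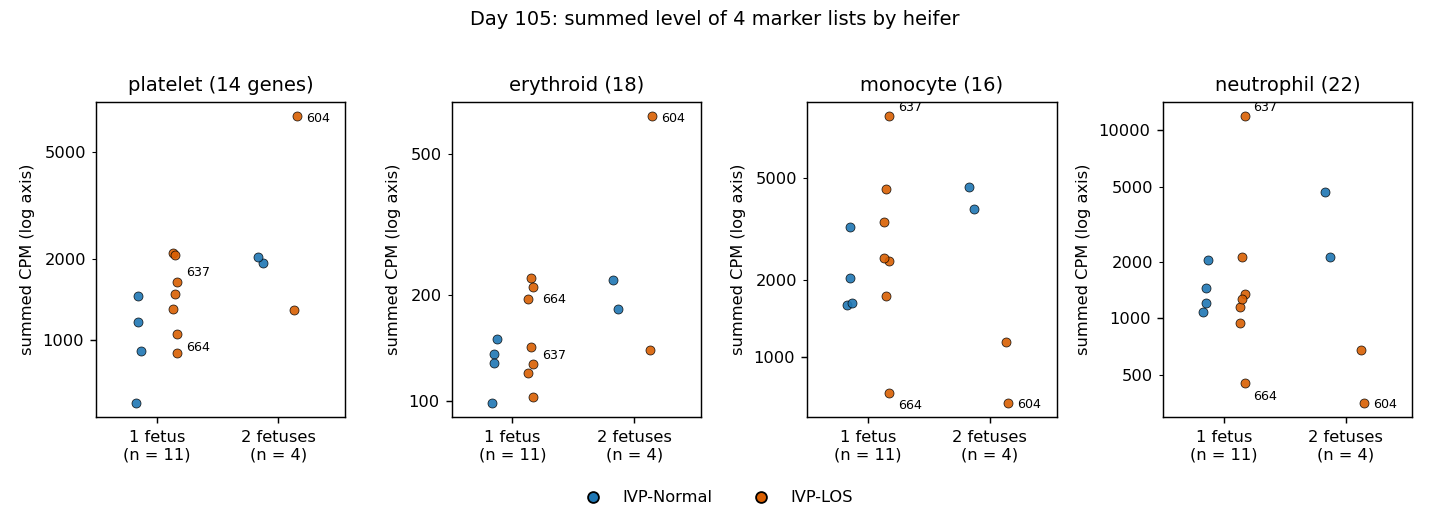
Summed level of the platelet, erythroid, monocyte and neutrophil genes in each IVP heifer on D105, in CPM on a log axis, by number of fetuses and coloured by treatment group. Heifer 604 has the highest platelet and erythroid sums (6791 and 640 CPM) and the lowest monocyte and neutrophil sums, and heifer 637, with 1 fetus, has the highest monocyte and neutrophil sums.

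For genes of monocytes and neutrophils the difference between 2 fetuses and 1 had opposite signs in the 2 treatment groups, though no gene passed edgeR's test of the difference between the groups. Within IVP-Normal (2 heifers against 4) edgeR called 1 of 15830 genes (0.00632%), *CACNA1B*, with 1431 (9.04%) at an unadjusted p under 0.05, of which 1136 were higher. DESeq2 called 345 genes (2.18%), 327 of them higher. Within IVP-LOS (2 heifers against 7) edgeR called 0 of 16200 genes (0%), with 1563 (9.65%) at an unadjusted p under 0.05, and DESeq2 called 31 (0.191%). Single heifers moved these counts: within IVP-LOS there were 315 genes at an unadjusted p under 0.05 without 604 and 3566 without 664, and within IVP-Normal 779 without 628. The difference between the groups, tested as an interaction, was called in 0 of 16555 genes (0%) by edgeR and in 162 (0.979%) by DESeq2. In 152 of the 162 the log2 fold change of 2 fetuses over 1 was lower in IVP-LOS than in IVP-Normal. At an unadjusted p under 0.05 there were 1913 genes (11.6%), of which 1460 had the lower fold change in IVP-LOS, and 1001 without 604. Across the 15671 genes tested in both groups, the log2 fold changes of the groups, which share no heifer, had a Pearson correlation of -0.27 (Spearman -0.24), and 42.5% had the same sign. Left-out single heifers moved it between -0.16 (without 688) and -0.33 (without 664), and genes are not independent replicates.

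The 16 monocyte genes in the table summed to 3782 and 4602 CPM in 688 and 628, above the 1591 to 3208 CPM of IVP-Normal heifers with 1 fetus. They summed to 1142 and 666 CPM in 557 and 604, against 729 to 8672 CPM in IVP-LOS heifers with 1 fetus, where 664 was the lowest and 637 the highest (4519 CPM in the next). The 2 heifers of each pair therefore lay close together, and the IVP-LOS pair overlapped only 664. The median log2 fold change of the 15 tested genes was 1.02 in IVP-Normal and -1.99 in IVP-LOS (-1.49 without 637 and -1.58 without 604), beside -0.02 over all genes in each. Of the 15, 12 had an interaction p under 0.05 and a lower fold change in IVP-LOS (11.6% of all genes passed in either direction). By edgeR 0 were called (smallest FDR over all genes 0.327) and by DESeq2 3. *SIRPA*, the phagocyte receptor for CD47, read 580 and 646 CPM in the IVP-Normal pair against 148 to 268 CPM with 1 fetus, and 69.4 and 68.0 CPM in the IVP-LOS pair against 49.0 to 883 CPM (interaction log2 -3.73, SE 1.002, edgeR FDR = 0.327). *CSF1R*, the receptor for macrophage colony-stimulating factor, was at 273 and 290 CPM against 96.6 to 174 CPM, and at 73.0 and 50.9 CPM against 28.9 to 485 CPM (interaction log2 -2.98, SE 0.93, edgeR FDR = 0.327).

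Neutrophil genes differed in the same way, over a wider range. The 22 genes in the table summed to 2117 and 4686 CPM in 688 and 628, against 1089 to 2058 CPM in IVP-Normal with 1 fetus, and to 679 and 357 CPM in 557 and 604, against 451 to 11904 CPM in IVP-LOS with 1 fetus (2127 CPM without 637). The median log2 fold change of the 12 tested genes was 1.38 in IVP-Normal and -2.70 in IVP-LOS (-2.04 without 637 and -2.72 without 604). Of the 12, 9 had an interaction p under 0.05, with the lower fold change in IVP-LOS (11.6% of all genes passed in either direction). *CXCR1*, a receptor for interleukin 8, was at 151 and 394 CPM against 50.1 to 99.1 CPM in IVP-Normal, and at 3.83 and 7.81 CPM against 6.30 to 331 CPM in IVP-LOS (interaction log2 -5.82, SE 1.60, edgeR FDR = 0.327). *CHI3L1*, a chitinase-like protein of activated neutrophils and macrophages, was at 106.9 and 144 CPM against 34.6 to 54.3 CPM, and at 12.6 and 7.37 CPM against 8.56 to 213 CPM. *ELANE*, neutrophil elastase, was at 5.46 and 5.03 CPM against 0.355 to 1.59 CPM, and at 0.258 and 0.111 CPM against 0.144 to 2.08 CPM (interaction log2 -4.76, SE 1.15, edgeR FDR = 0.327). In IVP-LOS the pair lay in the low part of the range of the heifers with 1 fetus, or below that range in some values. The high end was that of 637 in *SIRPA*, *CXCR1* and *CHI3L1*.

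Inflammatory and immediate early genes had medians of opposite sign as well. Of 27 inflammatory genes, 14 had an interaction p under 0.05 and a lower fold change in IVP-LOS, and 1, *TNF*, a higher one. Of all genes, 11.6% had an interaction p under 0.05 in either direction. The medians of the inflammatory list were 0.93 in IVP-Normal and -1.48 in IVP-LOS (-0.95 without 637 and -1.38 without 604). *IL1B*, the pyrogenic cytokine, was at 224 and 307 CPM against 64.2 to 212 CPM in IVP-Normal, and at 13.95 and 10.3 CPM, below the 19.0 to 206 CPM of every heifer with 1 fetus, in IVP-LOS (interaction log2 -4.22, SE 1.1, edgeR FDR = 0.327). *PTGS2*, the inducible prostaglandin synthase, was at 11.8 and 12.7 CPM against 3.12 to 7.16 CPM, and at 1.16 and 0.886 CPM against 1.73 to 19.5 CPM. Of 24 immediate early genes, 11 had a lower fold change in IVP-LOS at an interaction p under 0.05 and 2 a higher one. The list medians were 0.61 in IVP-Normal and -0.55 in IVP-LOS (-0.32 without 637 and -0.44 without 604). *JUN* had the smallest p of the list (interaction log2 -2.43, SE 0.54, edgeR FDR = 0.327). *JUN*, a subunit of the AP-1 factor, was at 211 and 154 CPM against 55.7 to 102.1 CPM in IVP-Normal and at 54.4 and 37.2 CPM against 62.8 to 196 CPM in IVP-LOS, without overlap in either group. *EGR3*, an early growth response factor, ran the other way, at 5.50 and 7.55 CPM against 6.57 to 15.2 CPM in IVP-Normal and at 10.3 and 10.9 CPM against 3.67 to 8.76 CPM in IVP-LOS. The part of monocyte and neutrophil RNA in the inflammatory and immediate early values was not tested.

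On D55 only the contrast over all 15 heifers was fitted, so the difference between treatment groups was not tested there. The D55 medians of the monocyte and neutrophil lists over the 15 heifers were -0.22 and -0.17, with 0 genes at an unadjusted p under 0.05. The D55 monocyte sums were 2941, 2481, 3548 and 1839 CPM in 688, 628, 557 and 604, all within the 1690 to 8023 CPM of heifers with 1 fetus. Over all 15 heifers on D105 the opposite directions left medians of -0.11 for monocyte and 0.00 for neutrophil genes. The inflammatory median was 0.00 as well, and 0.26 without 604. For immediate early genes the median was 0.24, with 23 of 24 genes higher and 0 at an unadjusted p under 0.05. Without 604 it was 0.37, and 5 of the 24 were higher at this threshold (3.43% of all genes in either direction).

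**Figure D4:**
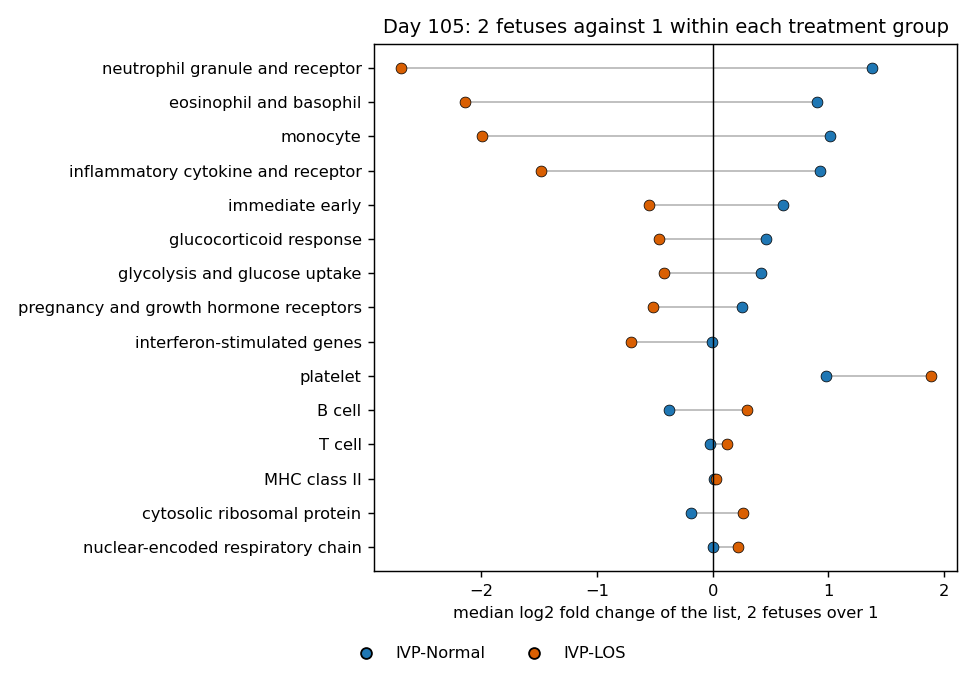
Median log2 fold change (2 fetuses over 1) of the tested genes of 15 lists on D105, within IVP-Normal (blue, 2 heifers against 4) and within IVP-LOS (orange, 2 against 7), joined by a grey line. Neutrophil, eosinophil, monocyte and inflammatory lists lie right of 0 in IVP-Normal and left of 0 in IVP-LOS. The eosinophil and basophil sum of 604 did not follow its list median: it was 155 CPM, against a median of 93.0 CPM in IVP-LOS heifers with 1 fetus. The platelet list lies right of 0 in both (in IVP-LOS through 604, without which its median was -0.20). The T cell, MHC class II and respiratory chain lists lie near 0 in both.

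*CACNA1B*, the pore subunit of a voltage-gated calcium channel best known from nerve terminals, was the gene called within IVP-Normal. Its D105 levels with 2 fetuses were 79.6 CPM (688), 38.3 CPM (628), 34.0 CPM (557) and 3.60 CPM (604). With 1 fetus it was at 0.476 to 4.41 CPM in 10 heifers and at 96.0 CPM in 664, the highest of the 15. The groups therefore overlapped, through 604 and 664. The log2 fold change was 1.95 over the 15 heifers (SE 1.201, edgeR FDR = 0.772), 5.47 within IVP-Normal (SE 0.32, edgeR FDR = 0.00275) and 0.33 within IVP-LOS (edgeR FDR = 0.953). The difference between the treatment groups was -5.16 (edgeR FDR = 0.459). Without 604 and 664 the log2 fold change of 2 fetuses against 1, over both treatment groups, was 4.89 (edgeR FDR = 0.000676). Those are the 2 heifers through which the groups overlapped, so this value describes the remaining heifers and tests nothing. The level differed little between days within a heifer: on D55 it had 88.8, 55.8, 27.5 and 2.18 CPM in 688, 628, 557 and 604, while 664, with 1 fetus, had 82.2 CPM. AI heifers, all with 1 fetus, spanned 0.525 to 59.4 CPM on D105, so a high level also occurred with 1 fetus outside IVP. Of the other 16 tested calcium channel genes, only *CACNA1S*, the skeletal muscle subunit, had an unadjusted p under 0.05 over the 15 heifers. Of all genes, 6.99% did. The log2 fold change of *CACNA1S* was 0.62 (SE 0.27, edgeR FDR = 0.681), and 0.45 without 604, not at an unadjusted p under 0.05.

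**Figure D5:**
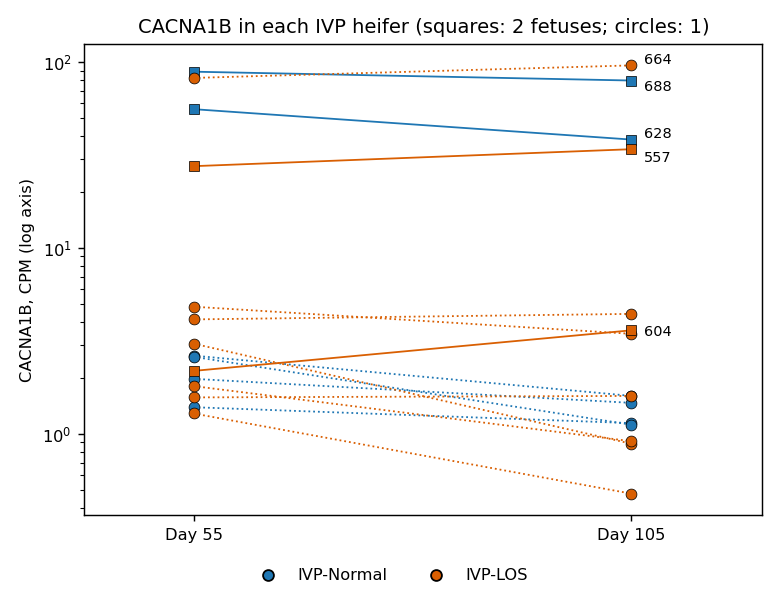
*CACNA1B* in each IVP heifer on D55 and D105, in CPM on a log axis, with a line per heifer; squares and solid lines are the 4 heifers with 2 fetuses, circles and dotted lines the 11 with 1. Heifers 688, 628, 557 and 664 are above 27 CPM on both days and the other 11, 604 included, are below 5 CPM.

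Other pathways linked to pregnancy held few genes at an unadjusted p under 0.05 and none that was called by edgeR. Of 28 interferon-stimulated genes, whose induction in leukocytes marks early pregnancy in ruminants, 24 had a negative log2 fold change and 0 had an unadjusted p under 0.05. The median log2 fold change was -0.26 (-0.23 without 604, -0.01 within IVP-Normal, and -0.71 within IVP-LOS or -0.50 there without 637). The genes summed to 2794, 2505, 1650 and 1949 CPM in 688, 628, 557 and 604, against 1658 to 4612 CPM (median 2318) with 1 fetus. Heifers 616 (4612 CPM) and 637 (4582 CPM) were the highest with 1 fetus. The smallest p of the list were those of the antiviral synthetases *OAS1Z* (log2 fold change -1.15, SE 0.55, edgeR FDR = 0.713) and *OAS1X* (-1.08, SE 0.52, edgeR FDR = 0.719). *OAS1X* was at 5.25, 24.2, 18.4 and 21.4 CPM with 2 fetuses, within the 10.3 to 92.6 CPM with 1 except for 688.

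Autophagy genes did not follow *GABARAPL2* as a group. Of 44 tested, 3 were higher at an unadjusted p under 0.05, *GABARAPL2*, the adaptor *SQSTM1* (log2 fold change 0.30, SE 0.10, edgeR FDR = 0.601) and *MAP1LC3A*, another ATG8 member (0.59, SE 0.20, edgeR FDR = 0.605), and 2 were lower, the lipid transporter *ATG2B* (-0.28) and the lipid kinase *PIK3C3* (-0.23). The median of the list was -0.02, and 6.99% of all genes were at this threshold in either direction. Without 604 only *GABARAPL2* and *ATG2B* of these 5 were at this threshold. Of 24 genes of regulation and tolerance, 3 were higher at this threshold: *IL4I1*, *TGFB1* (0.29, SE 0.11, edgeR FDR = 0.644) and *TNFRSF4* (0.57, edgeR FDR = 0.667). Without 604, *TGFB1* and *TNFRSF4* were at 0.16 and 0.39 and no longer at this threshold.

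Among 83 tested nuclear-encoded genes of the respiratory chain, 65 had a positive log2 fold change, and the list median was 0.12 (0.07 without 604). Of the 83, 9 had an unadjusted p under 0.05, all higher, where 6.99% of all genes did, and 2 did without 604, where 3.43% of all genes did. The highest sum of the list was that of 664, with 1 fetus (7034 CPM). *UQCR10*, a small subunit of complex III, was at 40.0, 40.7, 43.6 and 53.0 CPM with 2 fetuses and at 28.4 to 37.8 CPM with 1, without overlap (log2 fold change 0.38, SE 0.09, edgeR FDR = 0.595, and 0.28 without 604). *ATP5IF1*, the inhibitor of the ATP synthase, was at 66.8, 76.1, 70.3 and 198 CPM against 48.1 to 83.9 CPM, so only 604 lay outside. Within IVP-Normal the median of the list was 0.00 and within IVP-LOS 0.22. Of 81 cytosolic ribosomal protein genes, 0 were higher and 1 was lower at this threshold.

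*FTL*, the light chain of the iron store ferritin, was at 412, 644, 402 and 628 CPM with 2 fetuses and at 278 to 512 CPM with 1 (log2 fold change 0.59, SE 0.16, edgeR FDR = 0.595, and 0.49 without 604). It was the only one of 21 tested genes of iron, haem and folate demand at an unadjusted p under 0.05, where 6.99% of all genes were. On D55 the log2 fold change of *FTL* was 0.08. Of 18 hormone receptor genes, *GHR*, the growth hormone receptor, was the only one at this threshold (log2 fold change -1.35, SE 0.56, edgeR FDR = 0.655), at 0.209, 0.140, 0.215 and 0.0554 CPM against 0.105 to 0.799 CPM, a level of few reads, and it was no longer at the threshold without 604 (-1.10). *PRLR*, the prolactin receptor, had a log2 fold change of -0.58 (SE 0.37, edgeR FDR = 0.774). Of 19 glucocorticoid response genes, 1 passed, *TSC22D3*, which encodes the steroid-induced leucine zipper GILZ (0.52, SE 0.23, edgeR FDR = 0.704).

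None of 20 T cell, 9 gamma-delta T cell, 16 B cell, 14 natural killer, 13 MHC class II and 17 MHC class I genes had an edgeR p under 0.05 over the 15 heifers, where 6.99% of all genes did. Without 604, 3 of the B cell list did (3.43% of all genes), all of plasma cells and all higher with 2 fetuses. *MZB1*, a chaperone of antibody assembly, had 49.3, 23.1 and 34.1 CPM in 688, 628 and 557 but 9.97 CPM in 604, against 11.9 to 36.4 CPM with 1 fetus (log2 fold change 0.55 with 604 and 0.84 without). *JCHAIN*, the joining chain of IgM and IgA, had 548, 399 and 758 CPM in the 3 but 182 CPM in 604, against 222 to 590 CPM. *TNFRSF17*, the survival receptor BCMA of plasma cells, had log2 fold changes of 0.68 with 604 and 0.89 without. In *MZB1* and *JCHAIN* heifer 604 was below every heifer with 1 fetus.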

How the data were processed

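Maternal leukocyte RNA from heifers on D55 and D105 was sequenced by the authors as paired ends. Per the labels and methods, reads were trimmed, aligned with HISAT2 2.1.0 to ARS-UCD1.2 and counted per RefSeq gene with HTSeq (union). The authors deposited these unnormalized counts for 30675 genes, with strand and library kit not given in the sources used here. The 5 summary lines were left out of library sizes, and served to compute which percentage of reads fell outside genes. A second deposited count table, on Ensembl genes, served as an alternative.

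Counts were analysed in R 4.3.3 with edgeR 4.0.16 (filterByExpr with minimum count 10, TMM, quasi-likelihood F-test, Benjamini-Hochberg over all genes tested, FDR of at most 0.05). Only the compared libraries entered a fit. The standard error is the absolute log2 fold change over the square root of F. CPM values are TMM-scaled over all D105 or all D55 libraries. DESeq2 1.42.0 and the likelihood ratio test of edgeR, other scalings, no filter, treatment or the share of reads on no gene as a term, and left-out heifers were alternatives. The scripts were tested on simulated counts.

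Each heifer is a separate animal with 1 library a day. Depth of 18692653 to 24473385 reads leaves wide counting error for genes under 1 CPM. Fetus number was taken from the study's list, since the labels do not give it. Libraries of the same heifer on D55 and D105 deviated together (mean correlation of deviations 0.54, lowest 0.32, against -0.04 between different heifers), so the heifer number pairs them. No D105 library was a copy of another (highest correlation 0.98, smallest chi-square 24.1 per degree of freedom).

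The comparison, the 29 gene lists and the tests were chosen with earlier results of these data known. Genes are named by these rules: the 20 with the smallest p over the 15 heifers, genes called in another comparison, *CACNA1B*, *GABARAPL2*, *NRIP3* and *IL4I1* from earlier results, and of each list the 2 members with the smallest p and the 1 with the highest level. Others were chosen after their values were seen: the genes without overlap other than the 20, *PF4*, *ITGB3*, *ALAS2*, *JCHAIN*, *COQ6*, the *BOLA* genes, the autophagy genes other than *GABARAPL2* and *SQSTM1*, and the genes given by treatment group. Coordinates and sequences are not used here, since the gene table given (ARS-UCD2.0) is of another assembly than the counts.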

Additional observations from a re-analysis of the deposited data

Results flagged for a closer look

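Of 132 groups of values checked for a heifer far from the rest of its group, 32 had one, and 17 of the 32 were heifer 604. The rule flags about 1 in 20 groups of normally spread values. Many of the genes checked were named for their values in these same libraries, and CPM values were not logged. The count therefore cannot be set against that share. Among the 4 heifers with 2 fetuses, 604 stood far above the other 3 in *NRIP3* (29.8 CPM), *S100A1* (70.6 CPM), *TMCC2* (27.7 CPM), *CLTB* (69.6 CPM), *TUBA4A* (981 CPM), *DSTN* (108.4 CPM), *MARCH2* (257 CPM), *ACTA2* (30.9 CPM), *CPXM2* (11.9 CPM), *HBB* (544 CPM), *ATP5IF1* (198 CPM) and *GSTA4*, a glutathione transferase (30.9 CPM). It also did in the platelet genes *TUBB1* (3153 CPM), *PF4* (2159 CPM) and *ITGB3* (756 CPM) and in the summed platelet genes (6791 CPM). The summed erythroid genes were flagged too (640 CPM), of which *HBB* made up 544 CPM. In the same group 688 was far above the rest in *MS4A2*, the beta chain of the IgE receptor of basophils and mast cells (3.21 CPM), and 628 far below in *ATM* (28.5 CPM). The groups share libraries, so these are not separate events.

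Among the 7 IVP-LOS heifers with 1 fetus, 637 was far above the rest in the myeloid genes *SIRPA* (883 CPM), *CD14* (307 CPM), *CXCR1* (331 CPM), *CXCR2* (826 CPM), *CHI3L1* (213 CPM) and *PTGS2* (19.5 CPM). The same heifer was far above in the summed neutrophil genes (11904 CPM), inflammatory genes (4737 CPM) and immediate early genes (6008 CPM). Heifer 664 was far above in *CACNA1B* (96.0 CPM) and in the share of reads on no gene (36.1%). Among the 4 IVP-Normal heifers with 1 fetus, 519 was far below the rest in *JUN* (55.7 CPM) and 560 far above in *IL1B* (212 CPM).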

How the results depend on the processing

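Of 74 counts of called genes under alternatives, 61 equalled the reported count or were within 1.5 times of it. For 2 fetuses against 1 over 15 heifers (0 called), the likelihood ratio test of edgeR called 16 and DESeq2 10. With AI heifers added and treatment as a term 1 gene was called (*GABARAPL2*), without 604 and 664 it was 1 (*CACNA1B*), without 604 and 637 it was 1 (*COQ6*), and leaving out single heifers gave 0 to 1 (1 without 664). Within IVP-Normal (1 called) DESeq2 called 345, and leaving out single heifers gave 1 to 3 (3 without 688). Within IVP-LOS (0) DESeq2 called 31, and leaving out single heifers gave 0 to 4 (1 without 557, 4 without 664). For the difference between the treatment groups (0) DESeq2 called 162. On D55 (0), 1 gene was called without 604 and 664 (*CACNA1B*, whose groups overlapped through these heifers). For the difference between days, heifer as a replicate block, which pairs the libraries of an animal, gave 0 calls and 565 genes at an unadjusted p under 0.05 against 232 without the block, and 0 calls and 299 genes without 604. Of 738 gene values under alternatives, over 66 genes of the pooled comparison and 16 of the difference between treatment groups, 716 kept direction and side of the threshold, 20 passed it and 2 turned sign: leaving out single heifers put *CXCL8* between -0.47 and 1.85 and *DUSP1* between -0.40 and 1.48 on the log2 scale, negative without 628 and positive without the others (1.46 and 1.11 with all). The cause was not tested. Without 604 the difference between treatment groups held 1001 genes at an unadjusted p under 0.05, and without 688 the difference between days held 565. With no filter, 748 genes had an unadjusted p under 0.05 on D55 and 541 for the difference between days. The removal of 604 from IVP-LOS left 315 genes at this threshold, of 664 left 3566, and of both left 957. The alternatives without 604 and 637, without 604 and 664 on D55, and the left-out heifers of the differences between groups and between days were chosen after seeing the data. Within treatment groups, leaving out a heifer with 2 fetuses leaves 1, whose spread is assumed to be that of the other group.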

Other observations

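2 MHC class II genes were present in some heifers and near 0 in others, without regard to fetus number. *BOLA-DQA5* was at 311, 157, 12.7 and 0.0554 CPM in 688, 628, 557 and 604, and between 0 and 302 CPM with 1 fetus (median 0.917 CPM). *BOLA-DQB* was at 284, 396, 0.344 and 0.111 CPM, and between 0 and 346 CPM with 1 fetus (median 0.839 CPM). DQ genes of cattle are known to vary in number between haplotypes, and reads of near-identical copies can be split or lost in counting, so these levels are uncertain.

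At an unadjusted p under 0.05 in both treatment groups there were 299 of the 15671 genes tested in both, of which 63 had the same sign. Among all 15671 genes, 42.5% had the same sign, and genes are not independent replicates.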
